A study of Macaca fascicularis with 10 samples.

Results

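The genes described here are 6 core pluripotency transcription factors, POU5F1, SOX2, NANOG, PRDM14, ZFP42 and UTF1, in embryonic stem cells (ESCs) of the cynomolgus monkey (Macaca fascicularis). Every probe set annotated with 1 of these symbols was taken, which gave 8 of the 52865 probe sets of the Affymetrix Rhesus Macaque array: 3 for SOX2 and 1 for each other gene. The 6 genes stand among 11676 genes tested. No probe set named any of them together with another symbol. The values are MAS5 signals on a linear scale, and the number of arrays limits their precision.

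The arrays fell into 3 groups. Haploid ESCs from parthenogenetic blastocysts (PG-haESCs), which hold no paternal genome, were measured on 5 arrays: 4 of line MPH1, at passages 7, 8, 9 and 11, and 1 of line MPH2, at passage 4. Diploid ESCs derived after intracytoplasmic sperm injection (ICSI ESCs) were measured on 3 arrays of 3 lines, MES1 at passage 12, MES2 at passage 4 and MES3 at passage 4. Diploid somatic fibroblasts of female animals (MF) were measured on 2 arrays, at passages 14 and 15 under 1 code. The haploid cells were grown on feeder cells with Y27635 and Thiazovivin, per the labels, and no age of an animal is given. Only 2 haploid lines and 1 fibroblast culture were sampled, so p-values measure the spread between these arrays more than that between animals.

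POU5F1, which encodes OCT4, and SOX2 bind neighbouring DNA sites as partners, and with the homeodomain factor NANOG they form the centre of the network that keeps ESCs undifferentiated. PRDM14 is a zinc finger regulator that acts on POU5F1 in human ESCs. ZFP42, also called REX1, is a zinc finger protein related to YY1 and a widely used marker of undifferentiated cells. UTF1 is a chromatin-associated protein found in undifferentiated embryonic cells and in the early germ line.

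Before the results, 2 facts about the arrays matter. Markers of fibroblasts and feeder cells (13 of 17 listed genes tested, none listed at 0) were measured on every ESC array: their summed signal was 11691 to 89477 in PG-haESCs, 16291 to 197292 in ICSI ESCs and 242786 to 245540 on the arrays labelled fibroblast. Of these 13 genes, at least 11 were above the array median on each ESC array. The arrays labelled fibroblast also carried epidermal keratinocyte genes. All 11 of 14 listed ones tested were lower in both ESC groups (17.2% of all genes in PG-haESCs and 17.0% in ICSI ESCs). KRT2, LORICRIN, FLG2, KRTDAP, DSC1, DSG1 and IVL lay under the array median on every ESC array. They passed the filter on dim probe sets through the arrays labelled fibroblast alone, so this count is a description. KRT1, a keratin of differentiated epidermis, had 53895 and 53774 there, against 83.4 to 278 over the ESC arrays. They are called MF here, after their titles. Array medians, which serve below as the mark of a dim probe set, ran from 76.8 to 133.

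Markers of other lineages were read beside the members. Of 12 endoderm, 8 mesoderm, 4 neuroectoderm, 11 trophectoderm and 6 germ cell markers tested, 1 passed between PG-haESCs and ICSI ESCs in limma, VTCN1 of the trophectoderm list (2.95 ± 0.57 log2, adjusted p = 0.048), named after its value was seen. At an unadjusted p under 0.05 there were 4 endoderm, 3 mesoderm, 2 neuroectoderm, 2 trophectoderm and 3 germ cell markers. Of all genes, 0.574% passed and 8.76% had an unadjusted p under 0.05. The marker counts at an unadjusted p stand above that share, on short lists chosen with earlier results of these data known. Lower in PG-haESCs were SOX17, FOXA1, CER1, LGR5, TBXT, GSC and PRDM1. BMP4, DCX, NCAM1, TFAP2A, VTCN1, DAZL and MAEL were higher. The median change of the endoderm list was -1.66 log2. Against MF, 4 endoderm markers were higher in PG-haESCs and 8 in ICSI ESCs, and 3 mesoderm markers were higher in each. Among all genes, 23.0% were higher and 17.2% lower in PG-haESCs, with 22.5% and 17.0% in ICSI ESCs. Several of the marker counts against MF are near these shares, and all marker counts are a description. Trophectoderm markers gave 2 higher and 4 lower in PG-haESCs and 1 higher and 4 lower in ICSI ESCs, neuroectoderm markers 1 higher and 1 lower in PG-haESCs and 1 lower in ICSI ESCs, and germ cell markers 1 higher and 2 lower in PG-haESCs and 1 lower in ICSI ESCs. Between the ESC groups 0 of the 13 fibroblast and feeder markers and 0 of the 11 epidermal markers passed in limma, with 0 and 2 at an unadjusted p under 0.05. Against MF, only 3 of these 13 passed as lower in PG-haESCs and 4 in ICSI ESCs, and none passed as higher. In MES1 the signals of COL6A3, THY1, TWIST1, VIM and FAP exceeded those on both MF arrays. Not every gene of the list thus separated MF from all ESC arrays. COL1A1, COL1A2, COL3A1, DCN, LUM, FBN1, PRRX1 and S100A4 were lower on every ESC array than on both MF arrays. Among them COL1A2, DCN, LUM and S100A4 did not pass in either comparison. THY1, TWIST1 and VIM overlapped with MF in both ESC groups, and COL6A3 and FAP did in ICSI ESCs.

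POU5F1 was bright on all ESC arrays and dim in MF. Its signal in PG-haESCs was 26436, 33612, 27126 and 30209 on the MPH1 arrays of passages 7, 8, 9 and 11 and 17259.6 in MPH2. The ICSI ESC arrays gave 24278 in MES1, 20723 in MES2 and 27189 in MES3, and the MF arrays 40.6 and 80.0. MPH2 had the lowest POU5F1 signal of the 8 ESC arrays and MPH1 passage 8 the highest, so the haploid range enclosed the whole range of the ICSI ESCs. Both MF values lay under their array's median. The highest ESC signal was 1.95 times the lowest, an SD of 0.30 log2 over the 8 arrays, and 24.1% of all tested probe sets had a smaller SD.

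Between PG-haESCs and ICSI ESCs the log2 change of POU5F1 was 0.05 ± 0.28 (SE, limma, adjusted p = 0.99). Its 95% interval ran from -0.57 to 0.66, which corresponds to 0.676 to 1.58 times the ICSI ESC level, and its sign turned when lines were averaged first (-0.09). Against MF, POU5F1 was higher by 8.76 ± 0.34 log2 in PG-haESCs (adjusted p = 1.3e-08) and by 8.71 ± 0.35 in ICSI ESCs (adjusted p = 1.8e-08). Because MF was dim, the fold is a lower bound, taken with each MF signal raised to its array's median. It was at least 227-fold for PG-haESCs and at least 207-fold for ICSI ESCs. In bulk RNA, fewer cells that express a gene and less RNA per cell cannot be told apart.

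SOX2 had 3 probe sets, numbered here by their mean signal. Probe set 1 had 17023, 14279.6, 15719 and 11468 at passages 7, 8, 9 and 11 of MPH1 and 11690.4 in MPH2. In ICSI ESCs it had 9051 in MES1, 11208 in MES2 and 10048.5 in MES3, and in MF 43.8 and 66.3. Every PG-haESC array thus lay above every ICSI ESC array, though MPH1 passage 11 and MES2 differed little, and both groups lay far above MF.

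The SOX2 difference between the ESC groups was 0.43 ± 0.22 log2 (SE), 1.34-fold with a 95% interval of 0.969 to 1.86, and did not pass the test (limma, adjusted p = 0.76). Of all genes tested, 5.05% were likewise higher on every PG-haESC array than on every ICSI ESC array. Against MF, SOX2 was higher by 7.97 ± 0.26 log2 in PG-haESCs (adjusted p = 4.0e-09, at least 120-fold) and by 7.54 ± 0.27 in ICSI ESCs (adjusted p = 8.6e-09, at least 87.0-fold).

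**Figure D1:**
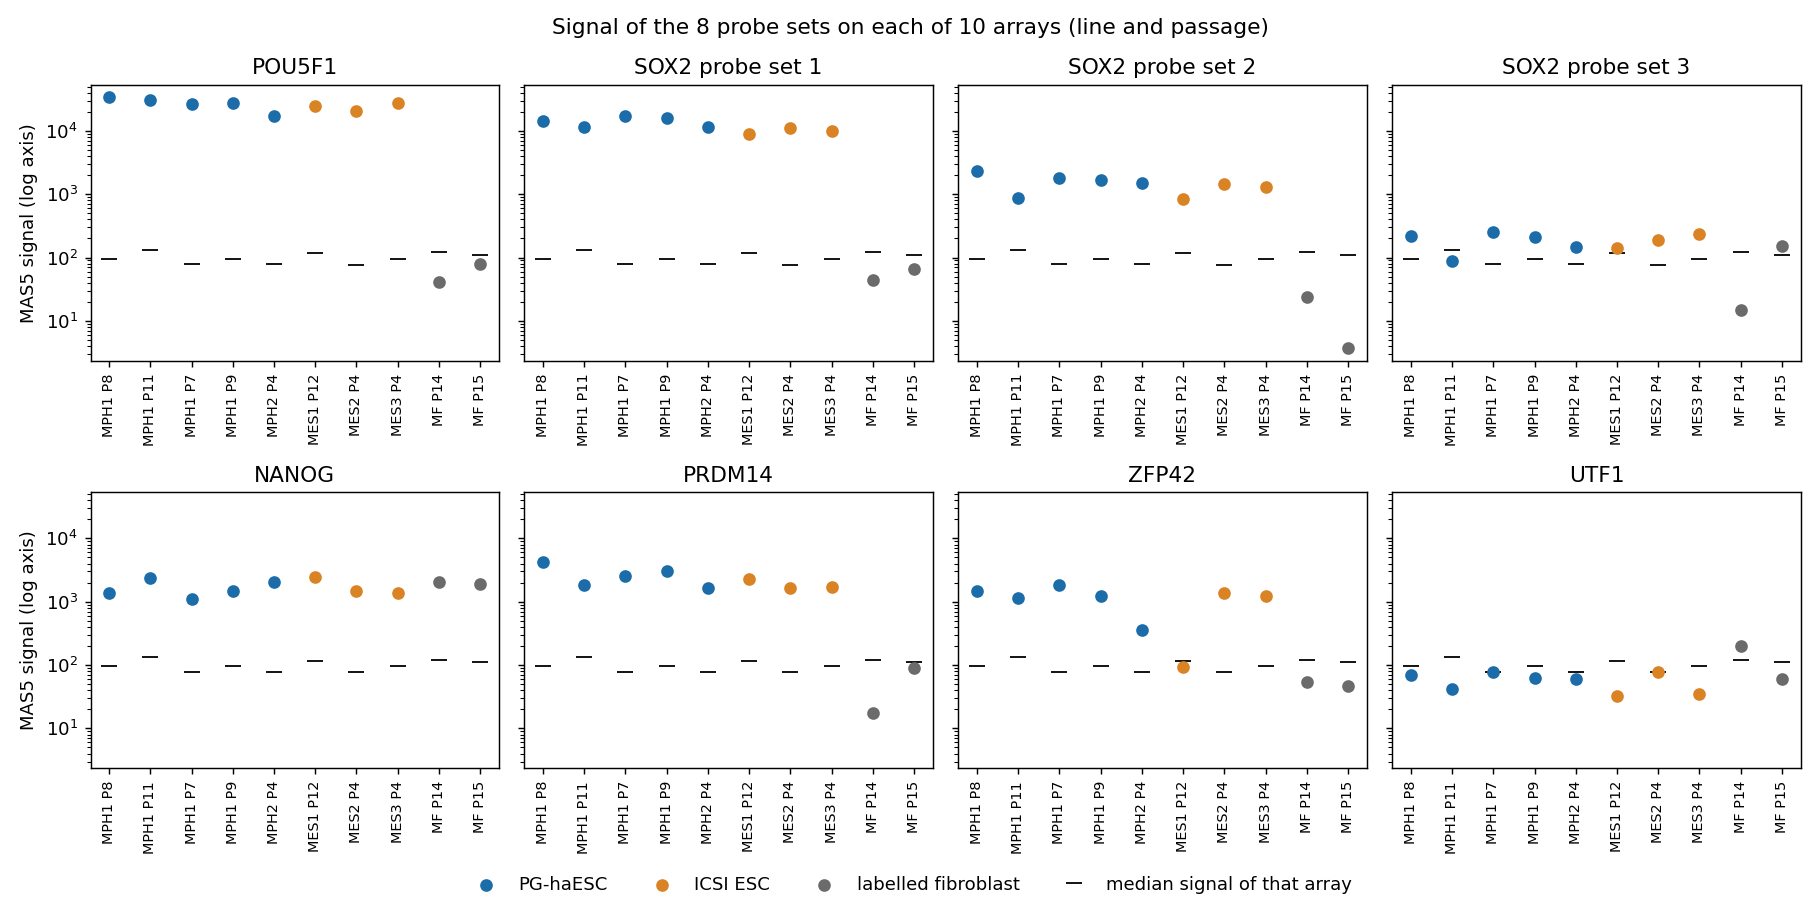
MAS5 signal (log axis) of the 8 probe sets on each of the 10 arrays, named by line and passage; points are single arrays coloured by group and the black dash is the median signal of that array. POU5F1, SOX2 probe sets 1 and 2 and PRDM14 are above the dash on all 8 ESC arrays and below it on both MF arrays, ZFP42 is below it in MES1, NANOG is above it everywhere and UTF1 is close to it or below on most arrays.

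The other SOX2 probe sets were set beside probe set 1 by their changes, since levels of different probe sets cannot be compared. Probe set 2 had 1787, 2290.3, 1675 and 864 at passages 7, 8, 9 and 11 of MPH1, 1483 in MPH2, 852 in MES1, 1464 in MES2, 1310.0 in MES3, and 23.4 and 3.72 in MF. It was also higher than in MF, at least 13.3-fold in PG-haESCs (7.36 ± 0.76 log2, adjusted p = 1.7e-05) and at least 10.2-fold in ICSI ESCs (6.98 ± 0.77, adjusted p = 2.9e-05), with both MF signals under the array median. The ESC groups overlapped on it (0.38 ± 0.63 log2, adjusted p = 0.98).

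Probe set 3 stood closer to the array medians and gave another picture. It had 253, 219, 214 and 87.7 at passages 7, 8, 9 and 11 of MPH1, 145 in MPH2, 142 in MES1, 186 in MES2 and 234 in MES3. In MF it had 14.7 and 151, so 1 of the 2 MF arrays lay within the ESC range. Its changes did not pass against MF, at 1.84 ± 0.98 log2 for PG-haESCs (adjusted p = 0.18) and 1.97 ± 0.99 for ICSI ESCs (adjusted p = 0.15), nor between ESC groups (-0.13 ± 0.81, adjusted p = 1.00).

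Whether the SOX2 probe sets gave the same change was tested on their log2 ratio within each array, with 6 exact two-sided permutation tests. Between all 8 ESC arrays and MF, the change of probe set 1 exceeded that of probe set 3 by 5.93 log2 and that of probe set 2 exceeded it by 5.32. Both had an exact p of 0.022, the smallest that 45 splits allow, and an adjusted p of 0.067. Probe sets 1 and 2 differed by 0.61 in the same comparison (exact p = 0.38, adjusted p = 0.45). These sizes rest on MF signals under the array median and moved with an offset of 32 added before log2, to 5.97, 3.82 and 2.15 in the order given. Between PG-haESCs and ICSI ESCs, probe set 1 exceeded probe set 3 by 0.56 (exact p = 0.054, adjusted p = 0.11), probe set 2 exceeded it by 0.49 (exact p = 0.071, adjusted p = 0.11), and probe sets 1 and 2 differed by 0.07 (exact p = 0.84). None of the 6 passed after adjustment, and with that offset all 3 contrasts with MF did (adjusted p = 0.044 each). For the contrasts with MF this was set by how many reached the smallest p, 2 without the offset and 3 with it. These tests thus cannot decide whether probe sets 1 and 2 gave the same change. They also treated the 4 arrays of line MPH1 as independent. Only SOX2 had more than 1 probe set, so the other genes have no such check.

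NANOG, the homeodomain factor, did not separate ESCs from MF on its probe set. It had 1107, 1385, 1451 and 2342 at passages 7, 8, 9 and 11 of MPH1, and 2040.3 in MPH2. ICSI ESCs gave 2434 in MES1, 1467 in MES2 and 1355 in MES3, and MF 2083 and 1904. Both MF values lay inside the ESC range, and MES1, MPH1 passage 11 and MPH2 were high among ESC arrays.

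Those 3 arrays were among the 4 ESC arrays with the most fibroblast and feeder marker signal. The mean log2 signal of those 13 genes was 11.3 on MPH1 passage 11, 10.8 in MPH2 and 12.5 in MES1, beside 13.1 on both MF arrays. MPH1 passage 9 had a mean of 10.95 with a NANOG signal among the lower ones, and the part of these markers in the NANOG signal was not tested. The NANOG change was -0.03 ± 0.31 log2 between PG-haESCs and ICSI ESCs, with a 95% interval of -0.69 to 0.64 (adjusted p = 1.00). Against MF the interval was -1.07 to 0.55 in PG-haESCs (adjusted p = 0.65) and -1.05 to 0.58 in ICSI ESCs (adjusted p = 0.68). A NANOG increase of the size of those of POU5F1 or SOX2 lies outside these intervals for this probe set.

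**Figure D2:**
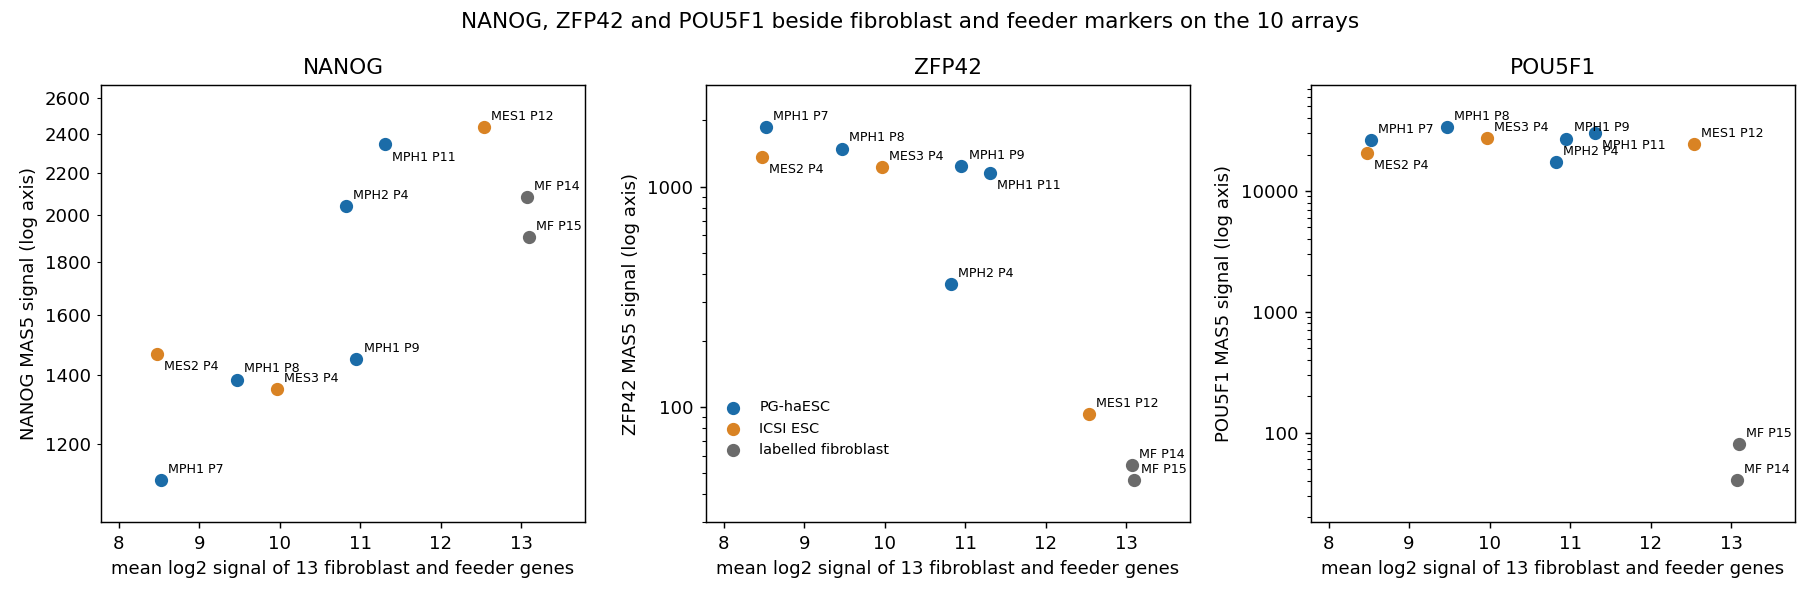
MAS5 signal (log axis) of NANOG, ZFP42 and POU5F1 against the mean log2 signal of 13 fibroblast and feeder genes; each point is 1 of the 10 arrays, labelled by line and passage and coloured by group. MES1 has the most marker signal of the ESC arrays (12.5), the highest NANOG signal (2434) and the lowest ZFP42 signal (92.8) of them, while its POU5F1 signal (24278) lies within the range of the other ESC arrays.

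PRDM14, the zinc finger regulator, followed POU5F1 and SOX2 in its contrast with MF. It had 2593, 4210.1, 3042 and 1822 at passages 7, 8, 9 and 11 of MPH1 and 1636 in MPH2. ICSI ESCs gave 2313 in MES1, 1631 in MES2 and 1679.8 in MES3, against 17.4 and 88.3 in MF. MPH1 passages 7, 8 and 9 were above all ICSI ESC arrays, while MPH1 passage 11 and MPH2 fell among them.

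PRDM14 changed by 0.35 ± 0.56 log2 between PG-haESCs and ICSI ESCs (limma, adjusted p = 0.98), with a 95% interval of -0.86 to 1.56. Against MF it was higher by 5.91 ± 0.68 log2 in PG-haESCs (adjusted p = 3.7e-05, at least 21.7-fold) and by 5.56 ± 0.68 in ICSI ESCs (adjusted p = 6.6e-05, at least 16.0-fold). The MF values differed by 5.06 times between themselves, both under the array median, so the size of the log2 change depends on dim signals.

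ZFP42 varied far more between ESC arrays than the other members. It had 1859.6, 1486, 1239 and 1159 at passages 7, 8, 9 and 11 of MPH1, and 361 in MPH2. In ICSI ESCs it had 92.8 in MES1, 1369 in MES2 and 1222 in MES3, and in MF 54.4 and 46.6. MES1 was the only ESC array under its array's median (117), and MPH2 was the lowest haploid array. The highest ESC signal was 20.0 times the lowest, with an SD of 1.46 log2 over the 8 arrays, and 93.5% of all tested probe sets had a smaller SD. On both of these arrays POU5F1, SOX2 probe set 1 and PRDM14 stayed above the array median. MES1 had the most fibroblast and feeder marker signal of the ESC arrays (mean 12.5 log2), MPH2 the fourth most (10.8), and the part of these markers in the ZFP42 signal was not tested.

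The ZFP42 change between PG-haESCs and ICSI ESCs was 0.77 ± 0.84 log2 (limma, adjusted p = 0.96), with a 95% interval of -1.05 to 2.59, and turned to -0.38 without MES1. Against MF it was higher by 4.19 ± 1.02 log2 in PG-haESCs (adjusted p = 0.0071, at least 9.29-fold) and by 3.42 ± 1.03 in ICSI ESCs (adjusted p = 0.022, at least 4.65-fold). When lines were averaged first, both contrasts with MF lost their call (adjusted p = 0.12 for PG-haESCs and 0.13 for ICSI ESCs), and over the alternatives the adjusted p for PG-haESCs ran from 4.9e-05 to 0.12. The ICSI ESC call was also lost without MES2 (2.74, adjusted p = 0.069), MES3 (2.82, adjusted p = 0.073), MF passage 14 (3.53, adjusted p = 0.062) or MF passage 15 (3.30, adjusted p = 0.078). Without MES1 it was larger (4.68, adjusted p = 8.7e-05), and over all alternatives its adjusted p ran from 8.7e-05 to 0.13. In all 9 of 24 alternatives lost the call, the others being no intensity trend (adjusted p = 0.059), robust variances (0.060), only the 2 groups compared (0.067) and signals under the array median set to it (2.33, adjusted p = 0.062).

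UTF1 was dim throughout. It had 78.0, 68.6, 62.9 and 42.3 at passages 7, 8, 9 and 11 of MPH1, 60.0 in MPH2, 31.97 in MES1, 78.0 in MES2 and 34.3 in MES3. In MF it had 199 and 61.1. It exceeded the array median on 2 of the 8 ESC arrays, by little, and on 1 MF array, which gave the highest UTF1 signal of all. The groups overlapped in each comparison, and the changes were 0.47 ± 0.68 log2 between PG-haESCs and ICSI ESCs (adjusted p = 0.98), -0.85 ± 0.83 between PG-haESCs and MF (adjusted p = 0.48) and -1.32 ± 0.83 between ICSI ESCs and MF (adjusted p = 0.26). With no detection calls in the table, signals this low cannot be told from those of a gene that is not expressed.

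Taken by gene, with SOX2 read from probe set 1, 0 of the 6 members passed between PG-haESCs and ICSI ESCs in limma, where 0.574% of all genes did. None of the 6 had an unadjusted p under 0.05, which 8.76% of all genes had. The 95% intervals of POU5F1, SOX2 and NANOG lay within 0.90 log2 of no change, whereas those of PRDM14, ZFP42 and UTF1 reached beyond 1.5 log2. The NANOG probe set had MF signals inside the ESC range. Whether it reports NANOG RNA was not tested, so its interval holds for this probe set alone. Between PG-haESCs and MF, 4 of 6 passed, all higher in PG-haESCs, where 40.2% of all genes passed and 23.0% were higher. The same count held between ICSI ESCs and MF, where 39.5% passed and 22.5% were higher. POU5F1, SOX2, PRDM14 and ZFP42 made up both counts and did not overlap with MF on any ESC array, as was so of 33.9% of all genes for PG-haESCs and 36.6% for ICSI ESCs in the higher direction. Both counts share the MF arrays. These 4 genes passed the filter on dim probe sets through the ESC arrays alone, so the counts describe them and support nothing further.

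**Figure D3:**
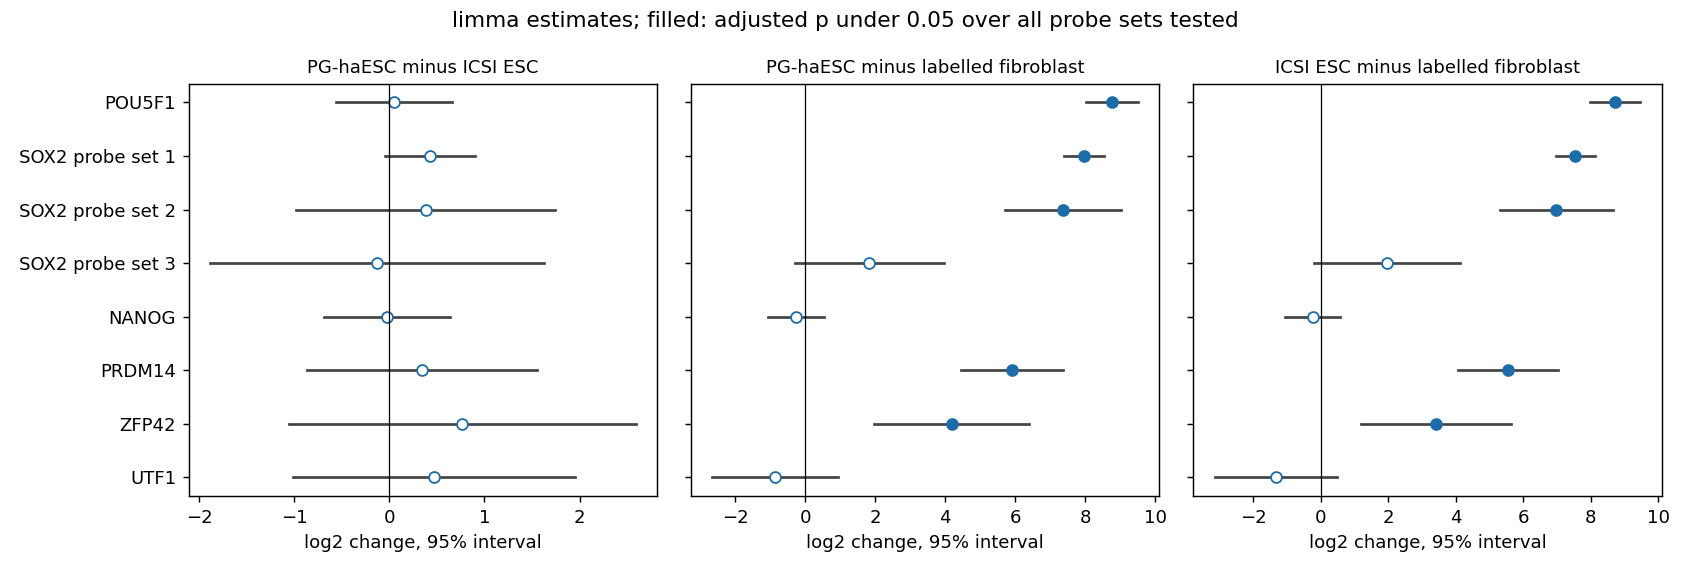
Log2 change of each probe set in the 3 comparisons, with 95% intervals from limma; filled points have an adjusted p under 0.05 over all probe sets tested. No point is filled between PG-haESCs and ICSI ESCs, while POU5F1, SOX2 probe sets 1 and 2, PRDM14 and ZFP42 are filled in both comparisons with MF.

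Line MPH1 was measured at 4 passages, with 1 array each and so with no test. ZFP42 was lower at each later passage, by 1.61 times between passages 7 and 11. The signals of UTF1 and of SOX2 probe set 3 had the same order, but UTF1 was no more than level with the array median at passage 7 (78.0 against 77.9) and under it at the others, and SOX2 probe set 3 was under it at passage 11 (87.7 against 133). No fold is given for these 2, since signals this dim cannot be told from no expression. NANOG was higher at each later passage, with the passage 7 signal 0.473 times that of passage 11. Of all tested probe sets, 4.43% were lower and 8.01% higher at each later passage. POU5F1, SOX2 probe sets 1 and 2 and PRDM14 had no such order, and PRDM14 was highest at passage 8 and lowest at passage 11.

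Passage is not the only thing that moved in this order. The mean log2 signal of the fibroblast and feeder genes was 8.52 at passage 7, 9.46 at passage 8, 10.95 at passage 9 and 11.3 at passage 11, so passage and marker signal cannot be told apart. The 4 arrays also carry 2 codes, M2 at passages 7 and 9 and M1 at passages 8 and 11, under the single line name. POU5F1 was higher on both M1 arrays than on both M2 arrays (1.19 times) and SOX2 probe set 1 was lower (0.782 times), while the codes overlapped for the other probe sets. Of all tested probe sets, 39.4% had no overlap between the codes.

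**Figure D4:**
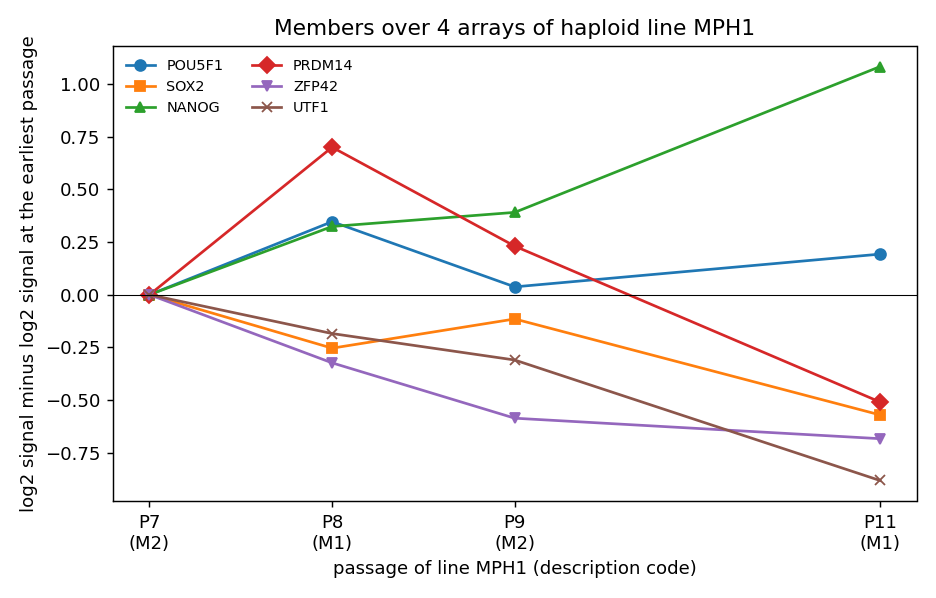
Log2 signal of the 6 members (SOX2 by probe set 1) on the 4 arrays of haploid line MPH1, relative to passage 7; the x axis gives the passage and the description code. ZFP42 goes down and NANOG goes up at each step, while POU5F1, SOX2 and PRDM14 move in both directions; the UTF1 line is drawn from signals level with or under the array medians.

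Genes with the most similar pattern over the 10 arrays were found by the root mean square (RMS) difference of log2 signals, each gene centred on its own mean, among 11670 genes. This is a description, dominated for most members by the gap between ESCs and MF. Nearest to POU5F1 were LIN28B, which encodes an RNA-binding protein (RMS 0.66), ZIC2 (0.70) and ARHGAP36 (0.81), against a median of 3.54 over all genes. LIN28B had 5197 to 9325 over the ESC arrays and 5.27 and 9.41 in MF, but unlike POU5F1 it was highest in MPH2.

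Nearest to SOX2 were DPPA4, a gene of undifferentiated embryonic cells (RMS 0.52), IGF2BP3 (0.61) and SLC7A3 (0.61), against a median of 3.16. DPPA4 had 2717 to 4551 over the ESC arrays and 20.3 and 49.3 in MF. For PRDM14 they were VRTN (0.47), the zinc finger gene SALL4 (0.49) and FAM89A (0.56), against a median of 2.45. SALL4, which is needed for ESC maintenance in the mouse, had 2561 to 4571 over the ESC arrays and 59.4 and 114 in MF.

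For NANOG the nearest genes were SSH1 (0.17), FASTK (0.19) and ZFYVE1 (0.20), against a median of 0.69. None of them separates ESCs from MF: SSH1, a cofilin phosphatase gene, had 495 to 830.0 over the ESC arrays and 671 and 775 in MF. Among the members themselves over the 10 arrays, POU5F1 and SOX2 were closest (0.50), SOX2 and PRDM14 differed by 0.95, and NANOG differed from POU5F1 by 3.67. Over the 8 ESC arrays alone NANOG differed from POU5F1 by 0.53, POU5F1 from SOX2 by 0.34 and POU5F1 from PRDM14 by 0.36, and the closest pair was SOX2 and UTF1 (0.32), of which UTF1 is dim. ZFP42 and UTF1 were not above the array median on all 8 ESC arrays and were given no nearest genes.

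**Figure D5:**
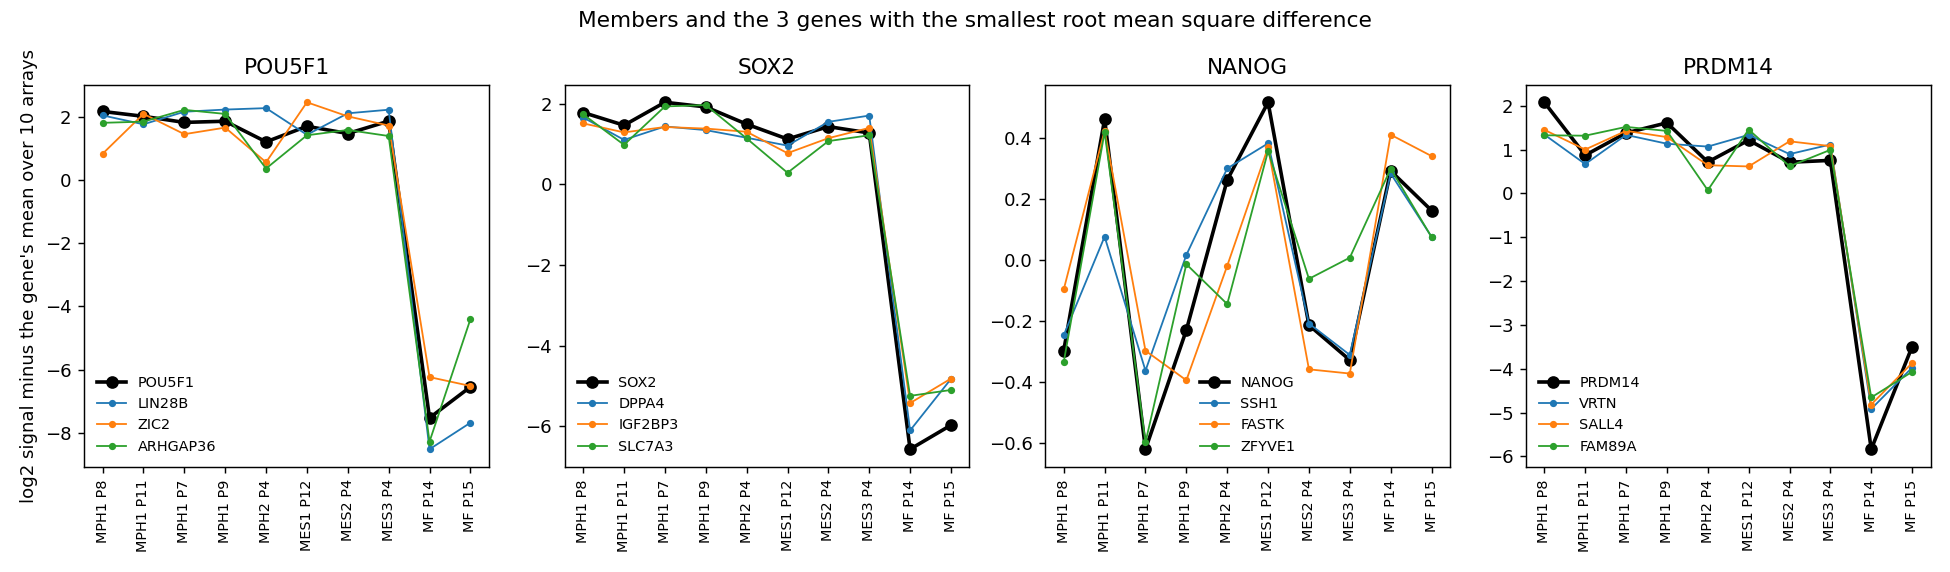
Log2 signal minus each gene's mean over the 10 arrays, by line and passage, for POU5F1, SOX2, NANOG and PRDM14 (black) and the 3 genes with the smallest RMS difference from each (coloured). The vertical scales differ: the panels of POU5F1, SOX2 and PRDM14 show a gap between ESC and MF arrays, and the NANOG panel shows none.

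Other genes of the pluripotency network were read from a list of 36, of which 20 were tested. Between PG-haESCs and ICSI ESCs 0 passed in limma and 2 had an unadjusted p under 0.05 (8.76% of all genes). The median change of the list was 0.09 log2, against -0.02 over all genes. Those 2 were MYCN, a growth-promoting MYC family gene (0.85 ± 0.26, adjusted p = 0.30), and the DNA methyltransferase gene DNMT3B (0.51 ± 0.20, adjusted p = 0.57). MYCN had 13113, 10969, 13818 and 7012 at passages 7, 8, 9 and 11 of MPH1, 13289 in MPH2, 7146 in MES1, 7173 in MES2 and 5218 in MES3. Apart from MPH1 passage 11, the PG-haESC arrays lay above all ICSI ESC arrays for this gene, and MYCN passed when MPH1 passage 11 and MES1 were both left out (1.07, adjusted p = 0.019). Over its alternatives the adjusted p ran up to 0.996, with a change of 0.07 when all MYCN probe sets were averaged.

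Against MF, 15 of the 20 network genes were higher and 1 lower in PG-haESCs, and 14 were higher and 1 lower in ICSI ESCs. Over all genes 23.0% were higher and 17.2% lower in PG-haESCs, and 22.5% were higher and 17.0% lower in ICSI ESCs. Network genes that are dim in MF, such as LIN28B and DPPA4, passed the filter through the ESC arrays alone, so these counts are a description. The medians were 4.02 and 4.11 log2, against 0.06 and 0.08 over all genes. LIN28B, DNMT3B, DPPA4 and SALL4 had the smallest p in both. The mean signal of DNMT3B was 17704 in PG-haESCs, 12025 in ICSI ESCs and 376 in MF. By the limma change it was 45.5-fold higher than MF in PG-haESCs (adjusted p = 3.6e-08) and 31.99-fold higher in ICSI ESCs (adjusted p = 9.0e-08). The gene lower in both was ZNF143, a widely expressed zinc finger gene, at -1.58 ± 0.34 log2 in PG-haESCs (adjusted p = 0.0032) and -1.21 ± 0.34 in ICSI ESCs (adjusted p = 0.016).

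Genes known from primed and from naive human pluripotent cells, the later and earlier embryonic states, were counted against MF in the same way. Of 10 primed-state genes tested (12 listed), 9 were higher in each ESC group (23.0% of all genes in PG-haESCs and 22.5% in ICSI ESCs). ZIC2, CYTL1, SALL2 and SOX11 had the smallest p. ZIC2, CYTL1, SOX11 and FGF2 lay under the array median on both MF arrays. They passed the filter through the ESC arrays alone, so the count is a description. Of 7 naive-state genes tested, 1 was higher and 4 were lower in each (17.2% of all genes lower in PG-haESCs and 17.0% in ICSI ESCs). The list held 15 genes. KLF17, ESRRB, TFCP2L1, DPPA3, DNMT3L, SUSD2, ARGFX and ALPPL2 were not tested, so the count does not describe the naive state as a whole. The difference between the lists was not tested. The higher one was NLRP7 (2.64 ± 0.23 log2 in PG-haESCs, adjusted p = 4.9e-06), and the lower ones were KLF2, KLF4, KLF5 and TFAP2C. KLF4 had a mean signal of 1993 in PG-haESCs, 2381 in ICSI ESCs and 25538 in MF. KLF4, KLF5 and TFAP2C are also epithelial genes, and the MF arrays carried the epidermal markers given above. Whether this bears on the 4 lower genes was not tested. Neither list had a called gene between PG-haESCs and ICSI ESCs in limma. Each had 1 gene at an unadjusted p under 0.05 (8.76% of all genes). These were KLF5 (-1.17 ± 0.47, adjusted p = 0.55) and ZIC2 (-0.86 ± 0.36, adjusted p = 0.58).

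Relatives of the members were counted by family. Of 13 SOX symbols tested besides SOX2, 5 were higher and 3 lower than in MF in each ESC group, where 23.0% of all genes were higher and 17.2% lower in PG-haESCs and 22.5% higher and 17.0% lower in ICSI ESCs. SOX3, the closest relative of SOX2 among them, had 1722, 1285, 1826 and 835 at passages 7, 8, 9 and 11 of MPH1, 1339.9 in MPH2, 1071 in MES1, 430.4 in MES2 and 924 in MES3, against 56.9 and 32.4 in MF. It was higher than in MF by 4.98 ± 0.50 log2 in PG-haESCs (adjusted p = 1.3e-05) and by 4.13 ± 0.50 in ICSI ESCs (adjusted p = 6.1e-05). SOX11, a gene of neural progenitors, was higher by 6.995 ± 0.608 log2 in PG-haESCs (adjusted p = 4.6e-06) and by 6.52 ± 0.61 in ICSI ESCs (adjusted p = 8.9e-06). The other called ones were SOX4 and SOX12, higher in both ESC groups, the probe set annotated SRY, and SOX6, SOX7 and SOX30, lower in both. The probe set annotated SRY had 61.2 to 220 in PG-haESCs, 122 to 138 in ICSI ESCs and 19.2 and 30.5 in MF. Cells without a paternal genome carry no Y chromosome, so in PG-haESCs this signal is not read as SRY expression, which leaves 4 SOX genes higher there. The sex of the ICSI ESC lines is not stated here, and what this probe set reports in them was not tested. SOX3, SOX11 and the probe set annotated SRY lay under the array median on both MF arrays. They passed the filter through the ESC arrays alone, and SOX7 passed it through the MF arrays alone. The SOX counts are thus a description.

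Of 4 POU genes tested, none was higher than in MF in either ESC group. Among all genes 23.0% were higher in PG-haESCs and 22.5% in ICSI ESCs, and 4 genes are too few to differ clearly from these shares. POU3F1 changed by -2.49 ± 0.60 log2 in PG-haESCs (adjusted p = 0.0067) and by -4.12 ± 0.60 in ICSI ESCs (adjusted p = 2.5e-04). POU6F1 changed by -2.00 ± 0.71 in PG-haESCs (adjusted p = 0.045), and its value in ICSI ESCs was -1.83 ± 0.71 (adjusted p = 0.068).

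Of 8 PRDM genes besides PRDM14, 4 were lower than MF in PG-haESCs, where 17.2% of all genes were, and 1 was lower in ICSI ESCs, where 17.0% were. None was higher. PRDM10 passed in both, at -1.01 ± 0.28 log2 in PG-haESCs (adjusted p = 0.016) and -0.91 ± 0.28 in ICSI ESCs (adjusted p = 0.027). PRDM1, a regulator of germ cell formation, had -3.08 ± 0.85 in PG-haESCs (adjusted p = 0.014) and -1.18 ± 0.85 in ICSI ESCs (adjusted p = 0.33). PRDM4 and MECOM were the other 2 called in PG-haESCs, at -0.78 ± 0.27 (adjusted p = 0.043) and -1.08 ± 0.38 (adjusted p = 0.046). Between PG-haESCs and ICSI ESCs no gene of the SOX, POU or PRDM lists passed in limma. There were 2, 1 and 2 of them at an unadjusted p under 0.05 (8.76% of all genes). SOX17, an endoderm regulator among them, had a mean signal of 269 in PG-haESCs and 1675 in ICSI ESCs (-2.91 ± 1.16, adjusted p = 0.56).

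Of the proteins that act with PRDM14 and the relatives of ZFP42, 4 of 7 listed genes were tested. Against MF, 2 were higher in each ESC group, where 23.0% of all genes were higher in PG-haESCs and 22.5% in ICSI ESCs. EED, another PRC2 gene, did not pass in PG-haESCs (0.50 ± 0.46 log2, limma, adjusted p = 0.46) or ICSI ESCs (0.64 ± 0.46, adjusted p = 0.33). Nor did YY2, at 0.004 ± 0.99 (adjusted p = 0.998) and -0.18 ± 1.00 (adjusted p = 0.92). SUZ12, a subunit of the Polycomb complex PRC2, was higher than in MF by 0.63 ± 0.18 log2 in PG-haESCs (adjusted p = 0.016) and by 0.57 ± 0.18 in ICSI ESCs (adjusted p = 0.027). YY1, the relative of ZFP42, was higher by 0.65 ± 0.20 in PG-haESCs (adjusted p = 0.026) and by 0.62 ± 0.21 in ICSI ESCs (adjusted p = 0.036). Unlike ZFP42, YY1 was bright in MF too, at 7916 and 8233, and had 12231 in MES1, within its range of 10398 to 15927 over the ESC arrays. None of the 4 passed between PG-haESCs and ICSI ESCs in limma, and 0 had an unadjusted p under 0.05 (8.76% of all genes).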

How the data were processed

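RNA of 10 samples had been hybridised to 1 array each. The deposited table holds signal intensity on a linear scale, computed by the authors with MAS5 per the submitters' processing notes (release not stated there). It has no detection calls. Every array had been scaled to 1 common level: trimmed of 2% of probe sets at either end, its mean rounded to 500. Of 52865 probe sets, 158 controls were dropped, and the 34139 that exceeded the array median on 2 or more arrays were tested. The supplied annotation gave 1 symbol to 24956, several to 361 and none to 27390. Where a gene had several probe sets, the brightest by mean log2 signal stood for it.

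Groups followed the labels. limma 3.58.1 in R 4.3.3 fitted log2 signal on all 10 arrays with group means, an intensity trend and cell line as a random block (correlation 0.286, residual and prior df 7 and 5.37), two-sided, with Benjamini-Hochberg adjustment over all probe sets tested and calls at 0.05. The mean signal of a gene in a group is the geometric mean over its arrays. The limma changes weigh arrays by line, so the ratio of such means need not equal the change. The alternatives changed the block, offset, normalization, filter, variance model, rule for probe sets, floor or arrays used. Up to 4 genes per list with the smallest p, and 3 nearest genes per member, are named. Figures used matplotlib 3.10.9 in Python 3.11.15. Members and lists (network, naive-state, primed-state, SOX, POU and PRDM relatives, PRDM14 partners, cell type markers) were chosen with earlier results of these data known.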

Additional observations from a re-analysis of the deposited data

Results flagged for a closer look

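ZFP42 in PG-haESCs had 1 array far from the other 4: MPH2, at a signal of 361, with the MPH1 arrays at 1159 to 1859.6. The gap to the nearest array was 0.711 of the group's range on the log2 scale, just past the critical value of 0.71. With independent arrays about 1 in 20 groups is picked out by chance. That rate does not hold here, since the other 4 arrays are of 1 line and 8 probe sets were looked at. The other 7 probe sets had no such array in PG-haESCs. MPH2 is also the only array of its line in the study, so array and line cannot be told apart. Without it, ZFP42 in PG-haESCs was 4.81 log2 above MF, against 4.19 with it.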

How the results depend on the processing

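Over 24 alternatives, 0 members passed between PG-haESCs and ICSI ESCs, and 3 to 4 did against MF. Of 429 recomputed member changes, 404 kept direction and side of the threshold, 10 lost a call (all ZFP42 against MF) and 15 changed sign, none of them called. The cause was not tested. With arrays centred on their medians, NANOG turned to 0.0551 (PG-haESC minus MF), 0.0477 (ICSI ESC minus MF) and 0.00734 (PG-haESC minus ICSI ESC). Between PG-haESCs and ICSI ESCs, averaging lines gave 0.0536 for NANOG and -0.0910 for POU5F1, and setting signals under the array median to it gave -0.0629 for UTF1. Leaving out each array gave ranges of -0.186 to 0.211 for NANOG, -0.0482 to 0.289 for POU5F1 and -0.381 to 1.46 for ZFP42. Leaving out MPH1 passage 11 and MES1, which had the highest spike-in controls (chosen after seeing the data), gave 0.103 for NANOG, -0.466 for ZFP42 and 1 called network gene, MYCN, against 0. An offset of 32 gave 3 SOX2 probe set differences past the threshold, against 0, which was set by how many contrasts with MF reached the smallest p. The 75th percentile filter left out UTF1. For ICSI ESCs and MF alone, the line correlation came from all arrays. No paired analysis was possible, because replicate numbers only count arrays within a group and no line or culture is shared between groups. The arrays are few, and signals near the array median have no detection call to bound them.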
